A study of Mus musculus with 23 samples.

Results

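A set of 10 genes of the lysosome was followed across single cells of 2 mouse cell types. They are the cathepsins Ctsa, Ctsb, Ctsd, Ctsk, Ctsl and Ctsz, the lysosomal membrane genes Lamp1, Lamp2 and Scarb2, and Psap. The set was chosen by gene symbol, with earlier results of these data known. Its shares beside those of all genes are therefore a description and not independent support. The 10 were all found among the 23284 genes with values. RNA-seq had been run on 16 single bone marrow MSCs (mMSCs), 5 single HL-1 cardiomyocytes (HL1cm) and 1 population control, a bulk sample of many cells, of each type (mMSC-PC and HL1cm-PC). All samples carry the strain label C57BL/6J. The mMSCs were purchased, came from 3-month-old male mice and were grown on gelatin in α-MEM at passages 6 to 11. HL1cm are a cardiomyocyte cell line, grown on fibronectin and gelatin in Claycomb medium with norepinephrine at passages 70 to 85. The HL1cm were stained with a green dye and shared the Fluidigm C1 capture device with the mMSCs, whose chip takes cell diameters of 17 to 25 micrometres. No separate cultures or animals were named, so each cell type counted as 1 sample, no test was made between them, and cell type cannot be told apart from passage, medium and dye.

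Lysosomes are acidic compartments in which proteins, lipids and sugars taken up or turned over by the cell are degraded. Cathepsins are their proteases: Ctsb, Ctsl, Ctsz and Ctsk are cysteine proteases, Ctsd is an aspartic protease, and Ctsa is a serine carboxypeptidase that also protects other enzymes of the lysosome. Lamp1 and Lamp2 are the abundant glycoproteins of the lysosomal membrane, Scarb2 (LIMP-2) carries glucocerebrosidase to the lysosome, and Psap is the precursor of the saposins, which present lipids to their hydrolases. Many lysosomal genes are known to be driven by the transcription factor TFEB, which binds an E-box, CACGTG, within a longer element near the start of transcription.

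The sequences around these E-boxes are shown because they are the feature that is known to link such genes. In the RefSeq promoter windows of build GRCm38.p6, which run from 250 bases before a start to 50 after it, 9 of the 10 genes had a window, all but Ctsb. CACGTG, which reads the same on both strands, was in a window of 4 of them, Ctsa, Ctsd, Ctsl and Lamp1, whereas 8.09% of the 27025 genes with a window held it. The longer TCACGTGA, also its own reverse complement and containing CACGTG, was in windows of Ctsa and Ctsd and in 1.12% of all genes, and with a further G before it and C after it, it was in none of the 9 and in 0.370% of all genes. Lamp1 held 4 copies within the 64 bases printed here, and Ctsa held 2 around a start inside the gene. By the GENCODE M21 positions given below, the printed stretches of Ctsd and Ctsl also lie inside their genes. That of Lamp1 lies before its gene. A match describes the letters in these windows and says nothing of binding in these cells. The E-boxes are in capitals, and each sequence is given 5′ to 3′ on the strand of the gene, at chr8:13159094-13159157 (+) for Lamp1, chr2:164833754-164833783 (+) for Ctsa, chr7:142387908-142387937 (-) for Ctsd and chr13:64370739-64370768 (-) for Ctsl.
Lamp1: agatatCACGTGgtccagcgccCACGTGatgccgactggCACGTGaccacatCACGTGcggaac
Ctsa: aaactgtCACGTGatgcagatgctCACGTG
Ctsd: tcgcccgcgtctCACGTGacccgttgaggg
Ctsl: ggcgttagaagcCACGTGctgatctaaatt

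Of the 10 genes, 8 were at least 2-fold higher in mMSCs than in HL1cm, none was at least 2-fold lower, and Ctsa and Scarb2 were within 2-fold. Levels are in FPKM, fragments scaled by exon length and by mapped fragments, and a difference is the mean log2 FPKM of the 16 mMSCs minus that of the 5 HL1cm, with values under 1 set to 1. The same measure was taken over 11850 genes that reached 1 FPKM in 2 or more cells, of which 21.4% were 2-fold higher and 21.6% were 2-fold lower in mMSCs. The median difference was 1.89 over the 10 genes and 0.084 over those 11850. Every mMSC lay above every HL1cm for 3 genes, Ctsb, Ctsl and Ctsz, compared with 2.26% of the 11850, and the opposite was seen for none of the 10, compared with 1.88%. With a floor of 10 FPKM in place of 1, 5 of the 10 remained past 2-fold, Ctsb, Ctsl, Ctsz, Lamp1 and Lamp2, all higher in mMSCs, and over the 11850 genes 7.44% were then higher and 7.69% lower.

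**Figure D1:**
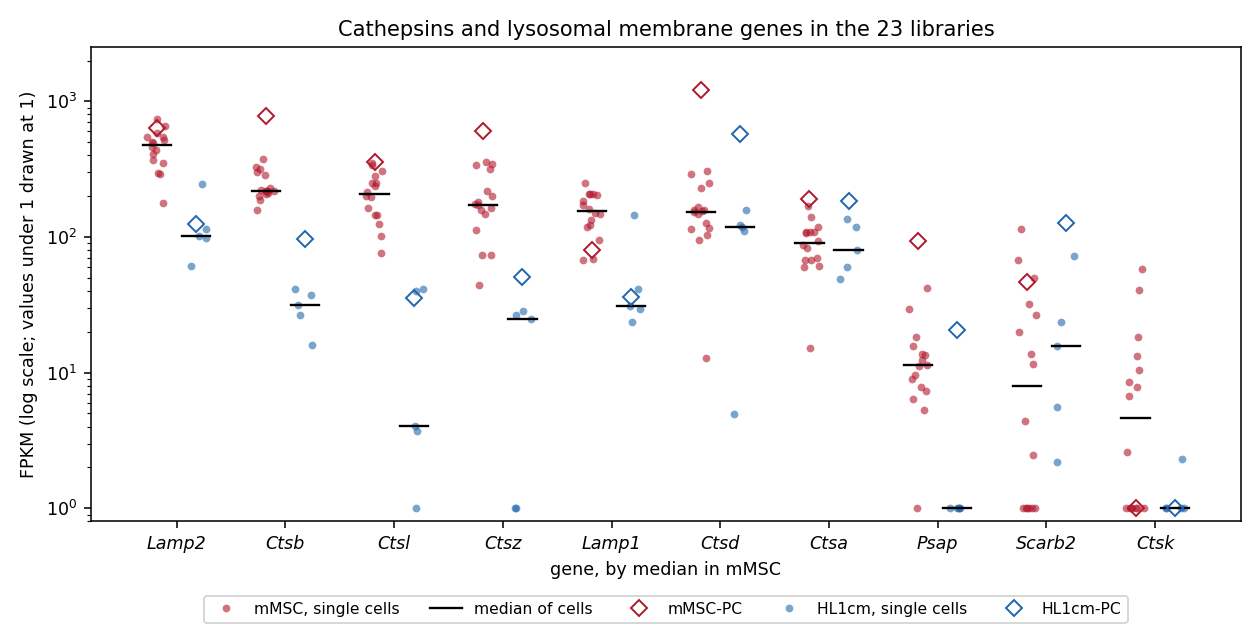
FPKM of the 10 genes on a log axis, with 1 filled point for each single cell, black bars at the median of the cells and open diamonds for the population controls; values under 1 are drawn at 1. The mMSC and HL1cm points do not overlap for Ctsb, Ctsl and Ctsz, and Psap is listed at 0 in the 5 HL1cm.

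The markers of the labels were met. All 9 cardiomyocyte genes examined were lower in mMSCs than in HL1cm, 8 of them without overlap, and the 7 mesenchymal genes among the 11850 were higher, while Thy1 was listed at 0 in every library. Macrophages and osteoclasts are rich in several cathepsins. Of 11 macrophage genes, 7 were listed at 0 in every cell, including Ptprc, Emr1, Lyz2, Tyrobp and C1qa, and the summed level of the list ran from 3.10 to 369 FPKM in mMSCs and from 0 to 1.10 FPKM in HL1cm. Cd14 gave most of that sum and was above 0 in 15 mMSCs, at a median of 62.5 FPKM and up to 337 FPKM. Csf1r was above 0 in 8 mMSCs, at up to 32.6 FPKM, and both were at 0 in every HL1cm. Of 7 osteoclast genes, 5 were at 0 in every cell, the sum was 0 to 73.8 FPKM in mMSCs and 0 to 9.502 FPKM in HL1cm, and Nfatc1 gave most of it. Their part in the cathepsin levels was not tested.

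The number of genes that reached 1 FPKM was 5178 to 7241 in the mMSCs, 6428 to 7010 in the HL1cm, 9625 in mMSC-PC and 9881 in HL1cm-PC. Of 8 genes in general use, Canx was listed at 0 in mMSC12 and the other 7 were above 0 in every cell, so a 0 here need not mean that a gene was not expressed, and genes with cells at 0 are given by their values without a mean ± SD. Read counts could not be recovered from the values, so the depth behind each level is not known from them. In GENCODE M21, on the mm10 (GRCm38) build of the FPKM values, Ctsa lies at chr2:164832873-164841032, Ctsz at chr2:174427493-174439039, Ctsk at chr3:95499256-95509362, Scarb2 at chr5:92441314-92506833 and Ctsd at chr7:142375911-142388038. Lamp1 lies at chr8:13159161-13175338, Psap at chr10:60277627-60302597, Ctsl at chr13:64359337-64370890, Ctsb at chr14:63122462-63145923 and Lamp2 at chrX:38401357-38456454, so the genes do not form a cluster. Exonic bases were shared by 5 of the genes with a gene on the opposite strand: Ctsa with Neurl2 and Pltp, Ctsb with Fdft1, Ctsl with Gm47123, Ctsz with Nelfcd and Lamp1 with Grtp1. Ctsd shares 808 bases with Gm49369 on its own strand, and Ctsl shares 395 with the pseudogene Gm49230. Whether strand was used in the counting is not given in the sources used here, so reads of these pairs cannot be told apart.

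Ctsb, a cysteine protease that cuts both within proteins and from their ends, was the most even of the 10 among mMSCs. Its level was 159 FPKM in mMSC3, the lowest, 219 at the median and 373 in mMSC16, the highest. In HL1cm1 to HL1cm5 it was 41.2, 37.6, 31.3, 26.7 and 16.1 FPKM. The groups were far apart, with the highest HL1cm below the lowest mMSC. Mean log2 FPKM was 7.89 ± 0.33 in mMSCs (SD, n = 16 cells) and 4.86 ± 0.54 in HL1cm (SD, n = 5 cells), an 8.15-fold difference (3.03 on the log2 scale). The controls went the same way, with 785 FPKM in mMSC-PC and 96.2 FPKM in HL1cm-PC.

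Ctsl, a cysteine endopeptidase, ranged in mMSCs from 75.8 FPKM in mMSC15 through a median of 206 to 350 FPKM in mMSC12. In the HL1cm it was 41.4, 4.01, 40.2, 0 and 3.71 FPKM. The HL1cm thus fell into cells near 40 FPKM and cells at or near 0, all below the lowest mMSC. The difference was 4.69 on the log2 scale, of which the size depends on the floor given to the low HL1cm. It was 3.47 or more under every alternative tried.

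Ctsz, a carboxypeptidase among the cysteine cathepsins, ranged from 43.9 FPKM in mMSC9 through a median of 173 to 358 FPKM in mMSC11. The HL1cm values were 0, 26.5, 24.7, 28.3 and 0 FPKM. Here too every HL1cm lay under every mMSC, and the cells at 0, HL1cm1 and HL1cm5, were not the one at 0 for Ctsl, HL1cm4. The difference was 4.54 on the log2 scale and at least 2.65 under each alternative, but with values rescaled to the same sum (TPM) the groups met for Ctsz. The population controls had 604 FPKM (mMSC-PC) and 50.5 FPKM (HL1cm-PC).

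Ctsk, the collagen-degrading cathepsin best known from osteoclasts, was listed at 0 in 7 mMSCs and above 0 in 9. The highest were mMSC12 with 58.4, mMSC13 with 40.9 and mMSC14 with 18.4 FPKM, and the other 6 lay between 2.61 and 13.3 FPKM. In HL1cm it was 0 in all but HL1cm4, which had 2.33 FPKM. Both population controls listed it at 0, although the mean of the 16 mMSCs was 10.4 FPKM. Its difference of 1.80 on the log2 scale was 0.37 with a floor of 10 FPKM. Of the 7 osteoclast genes, Calcr, Dcstamp, Ocstamp, Oscar and Mmp9 were at 0 in every cell, Itgb3 was above 0 in 2 mMSCs, and Nfatc1 was above 0 in 15, with a median of 21.4 FPKM.

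Ctsd, the aspartic cathepsin, ran from 12.9 FPKM in mMSC11 through a median of 154 to 309 FPKM in mMSC12. In HL1cm it was 118, 158, 123, 110 and 4.99 FPKM. Apart from the low cells mMSC11 and HL1cm5, the 2 cell types overlapped. Mean log2 FPKM was 7.10 ± 1.04 in mMSCs (SD, n = 16 cells) and 6.05 ± 2.09 in HL1cm (SD, n = 5 cells), and the 2.07-fold difference rested on HL1cm5: it was 1.05 on the log2 scale with that cell and 0.12 without it. The 2-fold call was likewise lost without mMSC7, mMSC10 or mMSC12, with median-of-ratios scaling (0.75), with medians over cells (0.38) and with a floor of 10 FPKM. The level of Ctsd was highest of the 10 in both population controls, 1206 FPKM in mMSC-PC and 579 FPKM in HL1cm-PC.

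Ctsa, the serine carboxypeptidase, differed little between the cell types. It ran from 15.2 FPKM in mMSC13 through a median of 90.8 to 170 FPKM in mMSC10, and was 60.6, 119, 136, 80.0 and 48.9 FPKM in HL1cm1 to HL1cm5. The HL1cm values lay within the range of the mMSCs. Mean log2 FPKM was 6.37 ± 0.78 (SD, n = 16 cells) and 6.37 ± 0.63 (SD, n = 5 cells), a difference of 0.0054 that ran from -0.30 to 0.34 over the alternatives. The controls were also close, with 190 FPKM in mMSC-PC and 186 FPKM in HL1cm-PC.

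Lamp2, which also serves as the receptor of chaperone-mediated autophagy, had the highest level of the 10 in mMSCs. It ran from 178 FPKM in mMSC9 through a median of 476 to 743 FPKM in mMSC10. In HL1cm it was 98.6, 247, 102, 115 and 61.3 FPKM. The overlap came from HL1cm2, which exceeded mMSC9 alone. Mean log2 FPKM was 8.77 ± 0.51 in mMSCs (SD, n = 16 cells) and 6.81 ± 0.73 in HL1cm (SD, n = 5 cells), a 3.90-fold difference.

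Lamp1, the companion of Lamp2 in the membrane, ran from 67.4 FPKM in mMSC13 through a median of 156 to 250 FPKM in mMSC16. In HL1cm it was 29.6, 144, 31.2, 23.5 and 41.1 FPKM. HL1cm2 was again the high cell, inside the mMSC range, and the other 4 lay below every mMSC. Mean log2 FPKM was 7.19 ± 0.56 in mMSCs (SD, n = 16 cells) and 5.39 ± 1.04 in HL1cm (SD, n = 5 cells), a 3.50-fold difference. Without HL1cm2, 5 genes had no overlap in place of 3, the added ones being Lamp1 and Lamp2.

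Scarb2 was the most uneven of the 10. It was listed at 0 in 6 mMSCs, mMSC1, mMSC3, mMSC5, mMSC9, mMSC13 and mMSC16, and above 0 in the other 10, from 2.48 FPKM in mMSC10 to 115 FPKM in mMSC6. In HL1cm it was above 0 in every cell, at 72.0, 2.2, 15.7, 5.54 and 23.6 FPKM. The range of the HL1cm lay inside that of the mMSCs. The difference was -0.95 on the log2 scale, ran from -1.58 to 0.68 over the alternatives, and was past 2-fold lower in 13 of 29, so that no direction is given. HL1cm-PC held 126 FPKM and mMSC-PC 46.9 FPKM.

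Psap was listed at 0 in each of the 5 HL1cm, while 20.6 FPKM was found in HL1cm-PC. In mMSCs it was at 0 in mMSC1, and ran from 5.27 FPKM in mMSC5 to 41.9 FPKM in mMSC9 in the others, with a median over all 16 of 11.3 FPKM. The mMSC-PC level was 93.9 FPKM. All mMSCs but mMSC1 were thus above all HL1cm, but at low levels: the difference on the floor of 1 FPKM was 3.37 and on a floor of 10 FPKM 0.42. No fold is given against a group at 0, and 15.03% of the 11850 genes were listed at 0 in all 5 HL1cm.

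**Figure D2:**
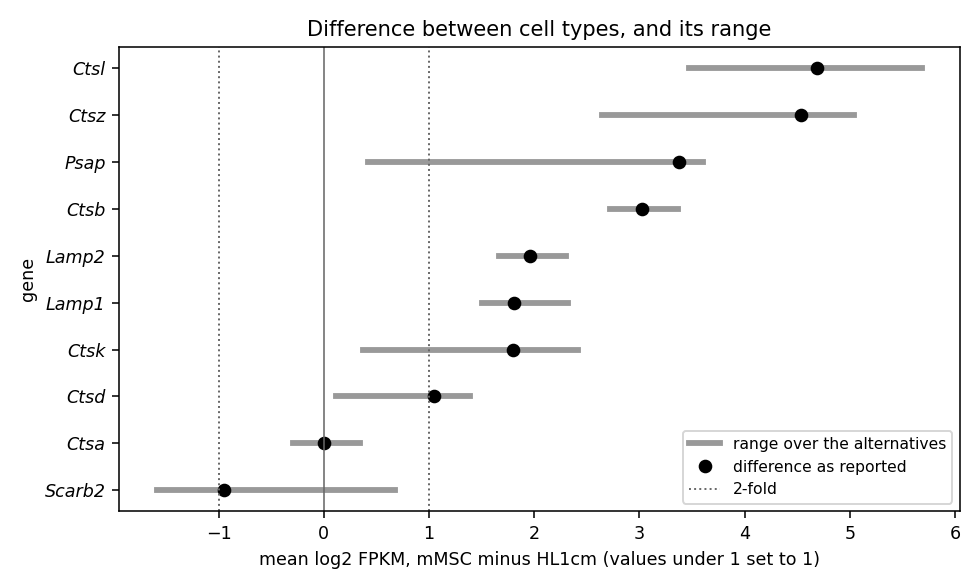
Mean log2 FPKM of mMSCs minus that of HL1cm for each gene (black point) with its lowest and highest value over the alternatives (grey bar); dotted lines mark 2-fold. The bars of Ctsb, Ctsl, Ctsz, Lamp1 and Lamp2 stay past 2-fold, and those of Ctsd, Ctsk, Psap and Scarb2 cross it.

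FPKM is per length, so levels of different genes are set side by side, but other gene-specific effects on a level were not checked. In mMSC-PC the order differed from that of the single mMSCs, with Ctsd highest and Psap (93.9 FPKM) above Lamp1 (80.5 FPKM). By median in mMSCs the order was Lamp2, Ctsb, Ctsl, Ctsz, Lamp1, Ctsd, Ctsa, Psap, Scarb2 and Ctsk. Lamp2 exceeded Ctsb in 14 of 16 cells, and Ctsa exceeded Psap in 15 of 16. The neighbours from Ctsb to Ctsd were not separated: Ctsb exceeded Ctsl in 9 cells, Ctsl exceeded Ctsz in 10, Ctsz exceeded Lamp1 in 7, and Lamp1 exceeded Ctsd in 5, each with a gap in mean log2 FPKM below the larger SD of the pair. The gaps from Psap to Scarb2 and from Scarb2 to Ctsk were also below it, as was that from Ctsd to Ctsa. In HL1cm the order was Ctsd, Lamp2, Ctsa, Ctsb, Lamp1, Ctsz, Scarb2, Ctsl, Ctsk and Psap, and of its neighbouring pairs Ctsa exceeded Ctsb in 5 of 5 cells, by more than the larger SD.

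The make-up of the 6 cathepsins differed between the cell types. Other cathepsins, such as Ctsc and Ctsh, are not part of these sums and shares. The summed level of the 6 cathepsins was 639 to 1493 FPKM in mMSCs (median 884) and 73.7 to 356 FPKM in HL1cm (median 261), and the ranges did not overlap. The largest single cathepsin in mMSCs was Ctsb in 6 cells, Ctsz in 4, Ctsd in 3 and Ctsl in 3. In HL1cm it was Ctsd in 3 cells and Ctsa in 2, and no HL1cm had a cysteine cathepsin as its largest of the 6. Ctsd was the largest in both controls, with 38.4% of the sum in mMSC-PC and 61.1% in HL1cm-PC. In mMSCs the share of Ctsb ran from 19.99% to 46.7% and that of Ctsz from 5.23% in mMSC9 to 42.0% in mMSC11. As shares of 1 sum they are not independent of each other.

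**Figure D3:**
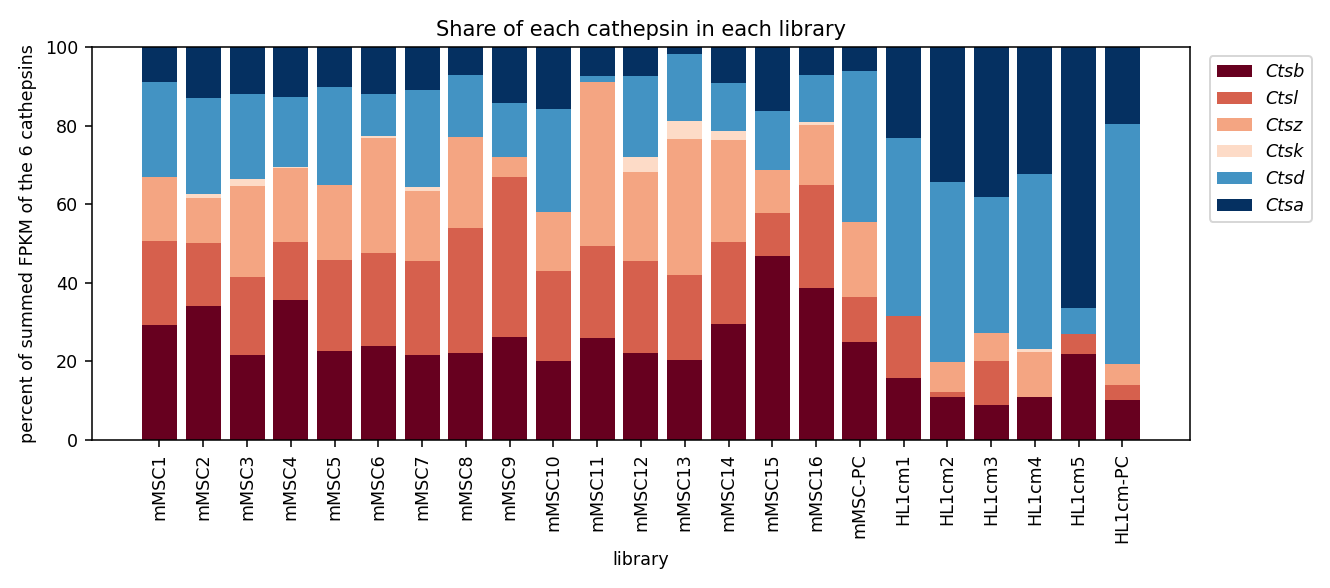
Share of each of the 6 cathepsins in their summed FPKM, in percent, with 1 bar for each library. Red shades are the cysteine cathepsins Ctsb, Ctsl, Ctsz and Ctsk, and blue shades are Ctsd and Ctsa. Other cathepsins are not part of the sum. The red part is the larger in every mMSC and the smaller in every HL1cm and in HL1cm-PC.

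The cysteine cathepsins are held in check by cystatins, chiefly the secreted Cst3 and the cytosolic Cstb. Cst3 was 692 to 3683 FPKM in HL1cm and 510 to 1726 FPKM in mMSCs, a difference of -1.30, and the ranges overlapped. Cstb went the other way, with 523 to 1786 FPKM in mMSCs, above the 132 to 448 FPKM of every HL1cm. The ratio of summed Cst3 and Cstb to summed Ctsb, Ctsl, Ctsz and Ctsk was 1.93 to 5.06 in mMSCs (median 2.77) and 37.7 to 50.0 in HL1cm (median 41.7). It was 0.961 in mMSC-PC and 17.6 in HL1cm-PC, each below all single cells of its type. The ratio does not depend on the scaling of a library. It leaves out cathepsins outside the 10, such as Ctsc and Ctsh. In HL1cm Ctsc was 4.35 to 36.9 FPKM and Ctsh 0 to 36.9 FPKM, beside 19.8 to 96.3 FPKM for the summed 4. With them the ratio would be lower in each HL1cm, so its range holds for these 4 genes only. In mMSCs Ctsc was at 0 and Ctsh was 0 to 145 FPKM.

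Among mMSCs the genes present in every cell varied least. The SD of log2 FPKM was 0.33 for Ctsb, 0.51 for Lamp2, 0.56 for Lamp1, 0.63 for Ctsl, 0.78 for Ctsa, 0.87 for Ctsz and 1.04 for Ctsd. These 7 were above 0 in all 16 mMSCs, as were 19.4% of the 11850 genes. Of 635 other genes above 0 in all mMSCs and within the range of mean log2 FPKM of the 7, the median SD was 0.72, and 1.26% had an SD no larger than that of Ctsb. For Lamp2 that share was 14.5%, for Lamp1 22.99%, for Ctsl 34.2%, for Ctsa 61.3%, for Ctsz 72.0% and for Ctsd 86.5%. Ctsb was therefore among the most even of these genes, which were matched to the range of the 7 and not to its own level. The 7 as a group had a median SD of 0.63, near that of the other genes. The cell with the lowest Ctsd, mMSC11 with 12.9 FPKM, was the one with the highest Ctsz.

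**Figure D4:**
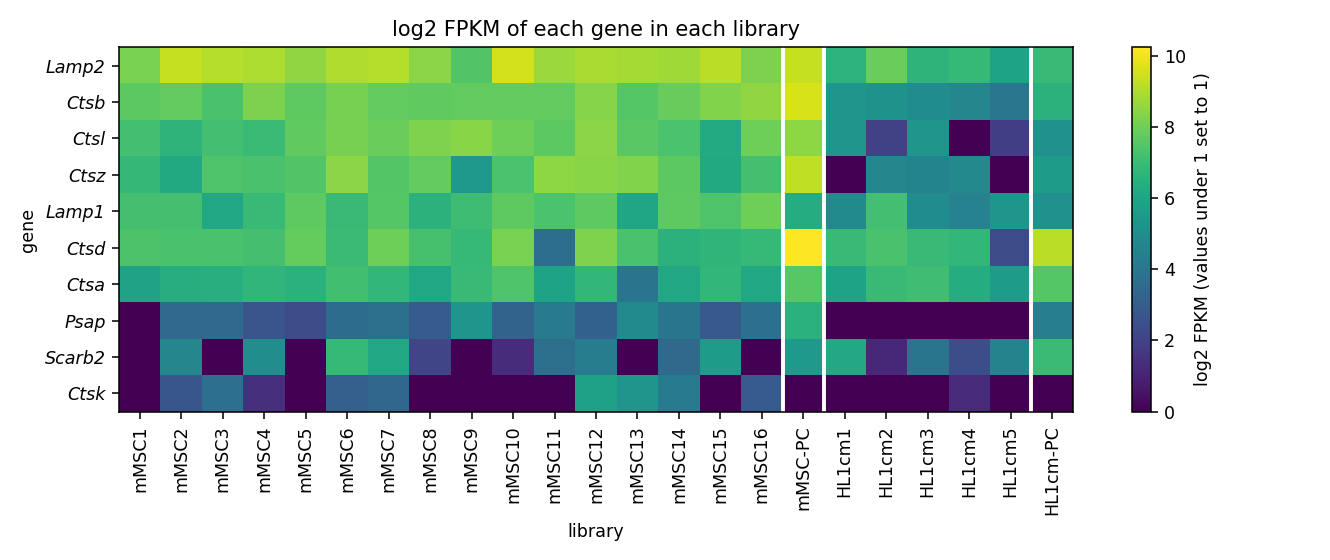
log2 FPKM of the 10 genes in each of the 23 libraries, with values under 1 set to 1; white lines part the mMSCs, mMSC-PC, the HL1cm and HL1cm-PC. Psap, Scarb2 and Ctsk differ from cell to cell between 0 and well above it, and the 7 genes above them in the plot are above 0 in every mMSC.

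The 10 genes did not rise and fall together from one mMSC to the next. Over the 45 pairs, Pearson's r of log2 FPKM across the 16 mMSCs had a median of 0.099, against 0.0024 for pairs of other genes of the same range of means. The lowest was -0.40 (Ctsl and Lamp2) and the highest were 0.55 (Ctsb and Lamp1) and 0.54 (Lamp2 and Scarb2). These 2 pairs were 4.44% of the 45, and 3.37% of the pairs of other genes were also at 0.5 or more. The points share the capture, the scaling within each library and its depth, and with values rescaled to the same sum the median was 0.46. That rescaling multiplies all genes of a cell by the same factor, and pairs of other genes were not compared under it. In mMSC12 and mMSC6 the mean log2 FPKM over the 10 genes was highest, at 7.02 and 6.83, and in mMSC1 it was lowest, at 5.03. That mean correlated most with Scarb2 (r = 0.71) and Ctsk (r = 0.68), which were listed at 0 in some cells and high in others. It contains these genes, whose SDs were the largest of the 10 (2.55 and 2.11), and genes that vary most weigh most in it. Of 2568 other genes that reached 10 FPKM in 12 or more mMSCs, the 5 most like it were Eif1ax (r = 0.74), Camk2d (0.72), Col5a2 (0.70), Zfand6 (0.68) and Btg1 (0.67), again over 16 cells that share these sources. They are the highest of 2568 values and were picked for being so, and are given as a description.

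Single cells and their population controls were compared next. In a bulk sample, fewer cells of a type and less RNA per cell cannot be told apart. In mMSC-PC, 8 of the 10 genes were above the mean of the single mMSCs, and 6, Ctsa, Ctsb, Ctsd, Ctsl, Ctsz and Psap, were above every single mMSC, compared with 8.89% of the 11850 genes. Ctsd was 7.48 times and Psap 7.05 times the mean of the cells, Ctsb 3.23 times and Lamp2 1.39 times. Lamp1 went the other way, at 0.515 times the mean, with 80.5 FPKM. In HL1cm-PC, 6 of the 10 were above every HL1cm, compared with 29.3% of the 11850, with Ctsd 5.63 times the mean of the cells and Lamp1 0.673 times. The median log2 ratio of the mean of the cells to the control was -1.09 in mMSCs and -1.36 in HL1cm, against 0 and -0.34 over the 11850 genes. There was 1 control of each type, so these values have no replicate check. Gapdh was 551 FPKM in mMSC-PC and 157 to 319 FPKM in the mMSCs, and with values scaled to Gapdh the median in mMSCs was 0.41, the opposite sign. The order Ctsd above Ctsb, Ctsz, Ctsl and Ctsa in mMSC-PC does not depend on scaling.

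Other genes of the lysosome were taken from 8 lists with 122 genes, likewise chosen with earlier results known, and 97 were among the 11850. Of these, 40 (41.2%) were at least 2-fold higher in mMSCs and 14 (14.4%) at least 2-fold lower, compared with 21.4% and 21.6% of the 11850. The median difference was 0.57 over the 97 and 0.084 over the 11850. That of the lysosomal genes depends on low values: it was 0.046 with a floor of 10 FPKM and 0.19 without the filter on low values. The soluble hydrolases and their activators had 19 of 33 higher and 2 lower, with a median of 1.15. Among them Gla (α-galactosidase) was 13.9 to 121 FPKM in mMSCs and 0 to 1.86 FPKM in HL1cm, Npc2 (cholesterol export) 138 to 496 and 0 to 32.1 FPKM, and Asah1 (acid ceramidase) 61.3 to 388 and 0 to 25.2 FPKM. Of the other membrane genes, 4 of 17 were higher and 1 lower, and the tetraspanin Cd63 had the largest difference of all the lists, with 2641 to 5034 FPKM in mMSCs and 16.7 to 100.0 FPKM in HL1cm.

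Of the 5 cathepsin inhibitors, 4 were higher in mMSCs and Cst3 was lower, with a median difference of 1.62. Of 20 genes of the proton pump that acidifies the lysosome, 6 were higher and 4 lower, beside 21.4% and 21.6% of the 11850 genes. These shares also stand beside the counts of the other lists. The higher pump genes included Atp6ap1, with 36.7 to 187 FPKM in mMSCs and 0 to 14.4 FPKM in HL1cm. Among the lower, Atp6v0e2 was at 0 in 15 mMSCs and at 43.2, 120, 50.1, 156 and 21.2 FPKM in the HL1cm. Of 8 other cathepsins and peptidases, 3 were higher and 2 lower. Among the higher, Scpep1 was 80.8 to 280 FPKM in mMSCs and 4.55 to 53.4 FPKM in HL1cm. Ctsc, a dipeptidyl peptidase that activates serine proteases, was the one cathepsin found in HL1cm and not in mMSCs: it was listed at 0 in all 16 mMSCs and in mMSC-PC, and was 35.9, 36.9, 4.97, 4.35 and 14.1 FPKM in the HL1cm and 42.7 FPKM in HL1cm-PC. Legumain (Lgmn), the protease that processes several cathepsins, was 19.2 to 58.5 FPKM in HL1cm and 0 to 52.6 FPKM in mMSCs, a difference of -1.33. That size includes 2 mMSCs listed at 0, and the medians, 42.7 FPKM in HL1cm and 27.8 FPKM in mMSCs, were within 2-fold. Sorting receptors and adaptors had 3 higher and 3 lower of 10. Of the factors known in general to bind such E-boxes, whose binding was not measured here, Tfe3 was 0 to 43.3 FPKM in mMSCs (median 6.39) and 0 to 4.31 FPKM in HL1cm, but the controls were alike, with 21.8 FPKM in mMSC-PC and 22.2 FPKM in HL1cm-PC. Tfeb was listed at 0 in all 16 mMSCs and in 3 of the 5 HL1cm, and was 3.71 FPKM in HL1cm2 and 25.0 FPKM in HL1cm5.

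**Figure D5:**
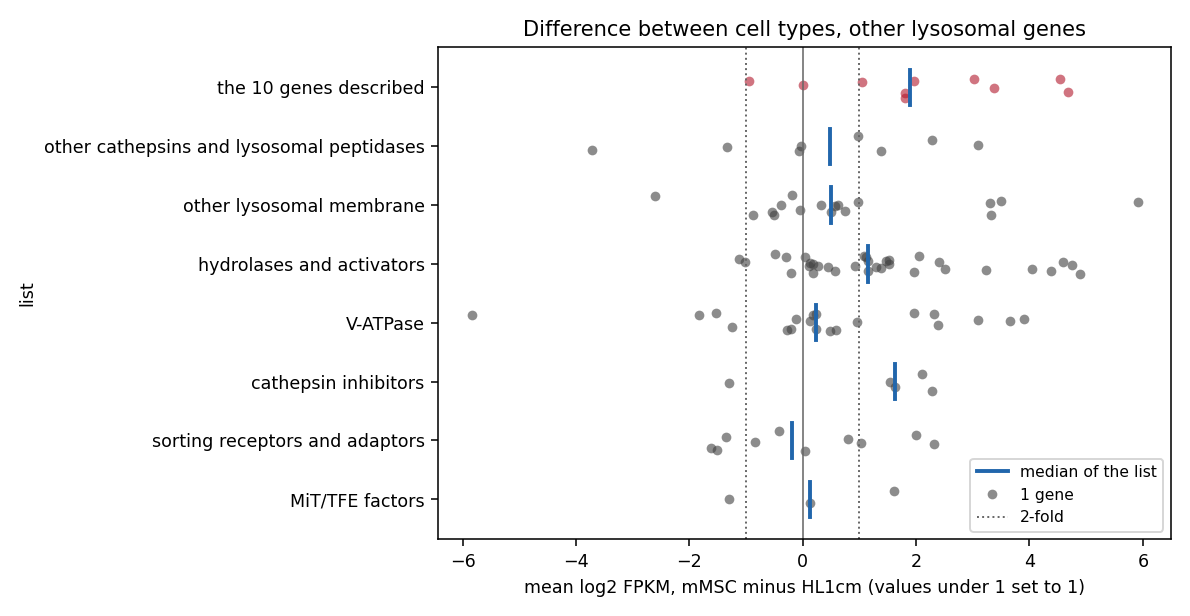
Mean log2 FPKM of mMSCs minus that of HL1cm for the 10 genes (red) and for the genes of the other lysosomal lists (grey) that are among the 11850, with 1 point for each gene and a blue bar at each median; dotted lines mark 2-fold. The medians are 1.89 for the 10 genes, 1.62 for the cathepsin inhibitors, 1.15 for the hydrolases and activators and 0.23 for the V-ATPase.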

How the data were processed

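Single-cell and bulk RNA-seq of mouse cells was analysed from the table of FPKM values deposited by the authors, with 1 column for each of the 23 libraries. By their methods and the submitters' processing notes, cDNA was made with the SMARTer kit on the C1 chip, libraries with Nextera XT, and reads were aligned to mm10 with TopHat2 2.0.12 and quantified with Cufflinks 2.2.1 at default options. The deposited FPKM were not rescaled. A floor of 1 FPKM was applied before log2 was taken, and the comparison covered genes that reached 1 FPKM in 2 or more cells. The low values shared no common step, so fragments were not recovered and no count model was used. No 2 libraries were identical.

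The 10 genes and the gene lists were chosen with earlier results of these data known. Genes named besides the 10 were up to 3 in each direction for each list, those with the largest differences of 2-fold or more, and the 5 genes most correlated with the mean of the 10. Gapdh and the markers were named in addition. Python 3.11.15, pandas 2.3.3 and matplotlib 3.10.9 were used, and the calculations were tested on simulated data. Gene overlaps came from GENCODE M21 and promoters from RefSeq.

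The alternatives were other floors, TPM, median-of-ratios and Gapdh scaling, other filters, medians, and leaving out each cell in turn.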

Additional observations from a re-analysis of the deposited data

Results flagged for a closer look

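In the 5 HL1cm, 38 genes were examined for a cell that lay apart from the others by Dixon's criterion (gap over range above 0.71), and 7 had one. Chance gives about 1 in 20 for values without ties, which does not hold for genes at 0 in 4 of the 5 cells, as Ctsk, Ctla2a and Igf2r were, so nothing is read from the number. Among the 10 genes, Ctsd was 4.99 FPKM in HL1cm5 while the other 4 HL1cm had 110 to 158 FPKM, and Ctsk was 2.33 FPKM in HL1cm4 and 0 in the others. Of the other lists, HL1cm3 had the lowest Cd63, at 16.7 FPKM against 62.8 to 100.0 FPKM, the lowest Atp6ap1, listed at 0 against 9.93 to 14.4 FPKM, and the highest Gnptab, at 6.71 FPKM against 0 to 1.08 FPKM. Ctla2a was 3.19 FPKM in HL1cm1 and Igf2r was 1.56 FPKM in HL1cm2, both with 0 in the other 4 HL1cm.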

How the results depend on the processing

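Over 32 alternatives, 1 of them (cells above 0 only) chosen after seeing the data, 532 of 542 values stayed within a set allowance. For the difference of a gene it was the larger of the SDs in mMSCs and HL1cm, up to 2.55 for Scarb2. Medians of differences or ratios used the median SD of the 10 genes between cells. The median SD and median r used a leave-1-out error, and counts 1.5 times. The allowance is wide: Ctsd at 1.05, and at 0.12 without HL1cm5, counted as kept. The sign was not kept in all of the 532 values: the difference of Ctsa was above 0 in 15 of 29 alternatives and that of Scarb2 in 1. With a floor of 10 FPKM, 5 of the 10 genes were past 2-fold in place of 8, and the other lysosomal genes had 18 higher and 5 lower in place of 40 and 14. The median difference of those other genes was 0.046 in place of 0.57, which also counted as kept. Over the 11850 genes, 7.44% were then higher and 7.69% lower, in place of 21.4% and 21.6%. Rescaled to the same sum (TPM), the median SD of the 10 genes in mMSCs was 1.10 in place of 0.83, the median r over pairs was 0.46 in place of 0.099, and 9 of the other lysosomal genes were lower. The largest single gene took 3.02% to 62.5% of the summed FPKM of an mMSC and 5.11% to 72.3% of that of an HL1cm. In mMSC8 and HL1cm5, where the share was highest, it was Mir3470a. Scaled to Gapdh, the median r was 0.25, and the median log2 ratio of mMSCs to mMSC-PC was 0.41 in place of -1.09. The causes were not tested. These scalings moved the median of the 11850 genes by 0.15 (TPM), -0.15 (median of ratios) and 0.14 (Gapdh), and the median of the 10 genes above it was 1.99, 1.75 and 1.99, in place of 1.80.

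Leaving out 1 cell at a time, the genes past 2-fold in either direction numbered 7 to 9, of which 7 or 8 were higher in mMSCs and the other, where there was one, was Scarb2, lower in mMSCs. Those without overlap numbered 3 to 5, with 5 without HL1cm2. Psap was added without mMSC1, and Lamp2 without mMSC9. No paired analysis was possible because the results come from no test, and cells that share a number in the 2 types are unrelated. Each cell type is 1 sample and each control is 1 library. The depth was not recovered from the FPKM, and the read numbers that the authors list for each cell were not used. Small differences and values listed at 0 are therefore not interpreted.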
